A study of Papio anubis with 60 samples.

Results

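H3K27me3 and H3K9me3, trimethylation of lysine 27 and of lysine 9 of histone H3, were compared within induced pluripotent stem cells (iPSC, reprogrammed from somatic cells) of the olive baboon, Papio anubis. The members were all peaks on chromosomes 1 to 20 in the deposited iPSC list of each mark, 131632 peaks labelled H3K27me3 and 209447 labelled H3K9me3. Together they made up 341079 of the 410692 peaks that these lists held on every chromosome and scaffold, and the series held 2116963 peaks in its 8 lists. Chromosome X, with 2399 H3K27me3 and 7851 H3K9me3 peaks, and the other scaffolds, with 24828 and 34535, were left out.

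The iPSC were of lines 160-2 and M14939#3, and chromatin immunoprecipitation with sequencing was done on 3 replicates of each line for each mark, 12 libraries for both marks together. Lines B4 and B15, embryonic stem cells (ESC), served for comparison, with the same number of replicates. All lines were cultured on feeder cells, and chromatin of 50000 cells, digested by micrococcal nuclease, went into each library. The labels give no donor, sex, passage or reprogramming method, and each cell type was represented by 2 lines, so that cell type and line cannot be told apart. Each mark had 1 peak list for the 6 libraries of a cell type, so the spread between replicates was not measurable and no p-value is given. Read depth per library is unknown from peak lists. The 95% Wilson intervals below cover only the counting of peaks.

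H3K27me3 is laid down by Polycomb repressive complex 2 (PRC2) and is known in pluripotent cells for marking the promoters of silent developmental genes, often together with H3K4me3, a mark of promoters, in what are termed bivalent domains. H3K9me3 is laid down by SETDB1 and the SUV39H enzymes, is bound by HP1 proteins, and is known for marking constitutive heterochromatin, transposable elements and zinc finger gene clusters. The usual textbook account places these marks largely in separate parts of the genome.

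The iPSC list labelled H3K27me3 held peaks with a median width of 442 bp, and 10% of them were wider than 1312 bp. They covered 90.1 Mb, or 3.47% of the 2593.8 Mb of chromosomes 1 to 20. The H3K9me3 peaks had a median width of 522 bp and covered 180.6 Mb, or 6.96%. The fold enrichment over background that the authors' peak caller gave had a median of 2.72 in the H3K27me3 list and 2.59 in the H3K9me3 list, so the typical peak of both lists was of similar and modest height.

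The H3K27me3 label was checked against the ESC lists. Of the iPSC H3K27me3 peaks, 17.3% (95% interval 17.1 to 17.5) overlapped an ESC H3K27me3 peak and 74.1% (73.8 to 74.3) overlapped an ESC H3K9me3 peak. When the ESC lists were moved along the chromosomes, those shares were 3.52% and 14.6%. In raw shares, the iPSC list labelled H3K27me3 thus shared more peaks with the H3K9me3 list of the other cell type than with the list of its own label. The ESC H3K9me3 list was also the longer one, with 260371 peaks against 51150. Both shares were well above their shifted levels, and by a similar multiple. In the reverse direction, 36.7% of the ESC H3K27me3 peaks overlapped iPSC H3K27me3 (8.16% after shifting) and 17.3% overlapped iPSC H3K9me3 (13.5% after shifting). Of the iPSC H3K9me3 peaks, 81.6% overlapped ESC H3K9me3 (15.8% after shifting). What single libraries or lines contributed to the iPSC H3K27me3 list cannot be told apart in a pooled list, and the specificity of the antibodies was not tested. Every result below rests on this list, and "H3K27me3" means the peaks with that label.

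Most H3K27me3 peaks of iPSC lay on H3K9me3. Of the 131632 H3K27me3 peaks, 100954 (76.7%, 95% interval 76.5 to 76.9) shared at least 1 bp with an H3K9me3 peak. To give the level that position along the chromosome alone would give, the other list was moved around each chromosome by a seeded distance 100 times, and the mean of those 100 shares is called the shifted level here. It was 12.1%, with a range of 11.4% to 13.1% over the 100 shifts, so that the measured share was 6.33 times the shifted level. With shifts of only 0.2 to 2 Mb, which keep the megabase-scale density of the marks, the shifted level was 15.9% and the ratio 4.81.

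In base pairs, 57.8 Mb lay in both marks. That was 64.15% of the H3K27me3 base pairs, against a shifted level of 7.39%, and 32.0% of the H3K9me3 base pairs, against 3.69%. Both marks together covered 2.23% of chromosomes 1 to 20, where the product of their coverages was 0.242%. The Jaccard index, the shared base pairs as a share of those in either list, was 27.1%. Seen from the other list, 84791 of the 209447 H3K9me3 peaks (40.5%, 95% interval 40.3 to 40.7) lay on H3K27me3, against a shifted level of 7.37%. The relation was thus uneven, with most of the H3K27me3 list inside H3K9me3 and most of the H3K9me3 list free of H3K27me3.

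The same measure in ESC gave far lower values. Of the 51150 ESC H3K27me3 peaks, 21.7% (21.4 to 22.1) lay on ESC H3K9me3, against a shifted level of 16.4%, a ratio of 1.33. In base pairs the ESC share was 9.93%, against a shifted level of 8.64%, and the ESC Jaccard index was 2.00%. The ESC H3K9me3 list covered more of the chromosomes than the iPSC one, 8.46% against 6.96%. The ESC H3K27me3 list covered less than the iPSC one, 2.08% against 3.47%. The part of list size in the difference between the cell types was not tested. The difference between the cell types has no replicate check, because each has 1 list per mark.

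The overlap was spread over the whole set of chromosomes. Over chromosomes 1 to 20 the iPSC share was 76.2% ± 5.73 (SD, n = 20 chromosomes), from 57.8% on chromosome 16 to 82.9% on chromosome 8, and each chromosome lay above the highest of its 100 shifts. In ESC it was 22.1% ± 1.73 (SD, n = 20), from 18.8% to 24.9%, and 18 of 20 chromosomes lay above their highest shift. The iPSC share exceeded the ESC share on 20 of 20 chromosomes, by 37.8 to 60.5 percentage points. Chromosomes share the same libraries and are not replicates of a cell type. Chromosome 19 had the lowest ratio of measured to shifted overlap in iPSC, 3.24, and H3K27me3 and H3K9me3 covered 9.24% and 15.6% of it.

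**Figure D1:**
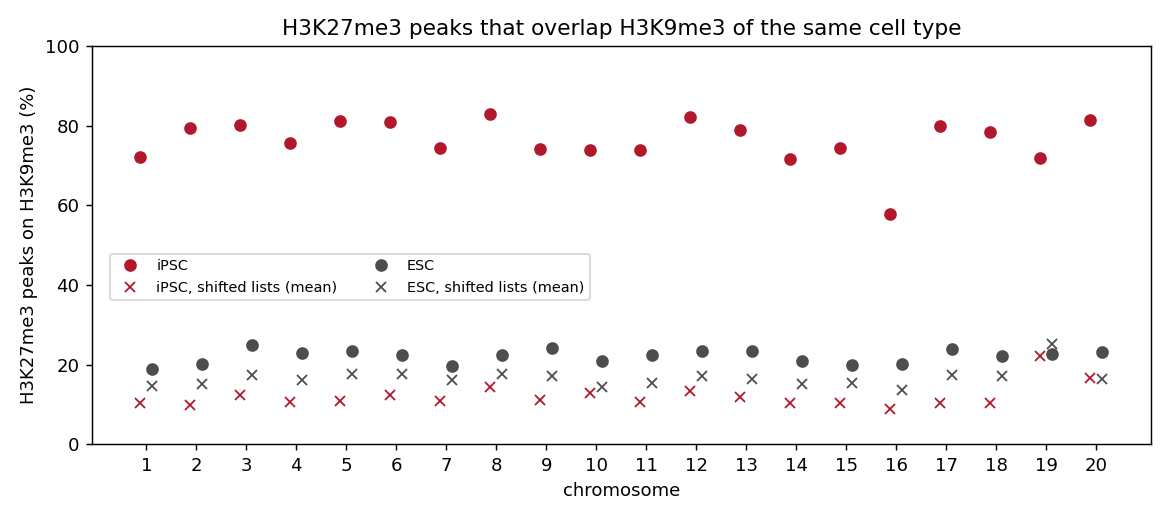
Percent of H3K27me3 peaks that overlapped H3K9me3 of the same cell type (vertical axis) on chromosomes 1 to 20 (horizontal axis). Filled circles are measured shares and crosses the mean of the shifted lists, in red for iPSC and grey for ESC; iPSC circles lie between 57.8% and 82.9% and ESC circles between 18.8% and 24.9%.

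Where the marks met, the narrower H3K27me3 peak usually sat inside a wider H3K9me3 peak. Of the 100954 overlapping H3K27me3 peaks, 70866 (70.2%) were wholly covered by H3K9me3 and 93246 (92.4%) were covered over at least 50% of their length. In ESC, 28.4% of the overlapping H3K27me3 peaks were wholly covered. Of the overlapping H3K9me3 peaks, 6.93% were wholly covered by H3K27me3, and the median covered share was 53.0%.

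Exactly 1 H3K9me3 peak was touched by 99772 of the overlapping H3K27me3 peaks (98.8%). In those 99772 pairs the median width was 456 bp for H3K27me3 and 1221 bp for H3K9me3, and the H3K9me3 peak was the wider one in 88.5%. The pairs were not copies of one interval, since 23.4% of the overlapping H3K27me3 peaks had both edges within 200 bp of the edges of the H3K9me3 peak. The centre of the H3K27me3 peak lay in the middle 50% of the H3K9me3 peak in 61.0% of pairs, where evenly placed centres would give 50%. A peak wholly inside a wider one cannot be centred at its edge, so the 50% is too low a level for such pairs. Across the pairs, peaks with a higher fold in one list tended to have a higher fold in the other, with a Spearman rho of 0.487 (widths, 0.361). These are descriptions over peaks of the same pooled libraries.

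The stretches in both marks were short. There were 102464 of them with a median length of 410 bp. Stretches of at least 1 kb numbered 13671 and held 38.8% of the shared base pairs, and the 140 of at least 5 kb held 1.67%. Most shared base pairs thus lay in stretches under 1 kb, but a stretch cannot be longer than the peaks that form it. Many stretches also lay close together. The 372 bins of 100 kb with at least 20% of both marks, 1.43% of bins, held 22.8% of the shared base pairs.

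The base pairs of H3K27me3 peaks covered by H3K9me3 differed greatly with peak width, while the share of peaks that touched H3K9me3 gave no stable order of the narrowest and the widest. Of the 75145 peaks under 500 bp, 73.7% lay on H3K9me3, against a shifted level of 9.64%. The share was 82.5% among the 35326 peaks of 0.5 to 1 kb, 80.9% among 15466 peaks of 1 to 2 kb, 70.4% among 4698 peaks of 2 to 5 kb and 61.0% among 726 peaks of 5 to 10 kb. Among the 271 peaks of at least 10 kb it was 74.5%, where the shifted level was 61.3% because a wide peak has more room to touch another. The widest class thus stood 0.8705 points above the narrowest, and with peaks of −log10 q, the caller's measure of confidence, of at least 2 in both lists the difference was -21.5 points. It was -34.3 points at −log10 q of at least 3, -15.2 with the H3K9me3 list reduced to the number of H3K27me3 peaks, and -0.442 at the lowest with 1 chromosome left out. Measured against their shifted level, the widest peaks met H3K9me3 1.22 times as often, and the narrowest 7.64 times.

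The covered base pairs separated the classes more clearly. H3K9me3 covered 67.9% of the base pairs of peaks under 500 bp, 75.4% at 0.5 to 1 kb and 73.4% at 1 to 2 kb. It covered 55.0% at 2 to 5 kb, 25.7% at 5 to 10 kb and 11.0% in the widest class, whose shifted level was 7.17%. The widest H3K27me3 domains were touched by H3K9me3 but mostly not covered by it.

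In the H3K9me3 list the covered share was higher in the wider classes. Of its peaks under 500 bp, 20.2% lay on H3K27me3, against a shifted level of 4.99%. The share was 41.7% at 0.5 to 1 kb, 69.9% at 1 to 2 kb, 93.1% at 2 to 5 kb and 98.1% at 5 to 10 kb, against shifted levels of 6.92%, 9.84%, 15.3% and 28.4%. Of the 441 H3K9me3 peaks of at least 10 kb, 439 (99.5%) lay on H3K27me3, where the shifted level was 45.6%. The ratio to the shifted level was 4.06 in the narrowest class, highest at 1 to 2 kb with 7.10, and 2.18 in the widest. H3K27me3 covered 15.9% of the base pairs of the narrowest class and 52.1% of the widest, 4.56 and 11.2 times their shifted levels. For H3K27me3 peaks in H3K9me3 these ratios were 9.36 and 1.54. With shifts of only 0.2 to 2 Mb, the levels for the H3K9me3 peaks were 3.66% and 16.7%, and the ratios 4.35 and 3.12. Against these levels the widest class thus stood below the narrowest, and the highest ratio was 7.22 at 1 to 2 kb. The share also differed with the firmness of the peak. It was 14.2% in the 20% of H3K9me3 peaks with the lowest −log10 q and 70.6% in the 20% with the highest. Their shifted levels were 5.52% and 9.20%.

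H3K4me3 divided the H3K27me3 peaks. Of the 36599 H3K27me3 peaks that overlapped an iPSC H3K4me3 peak, 51.1% (50.6 to 51.6) lay on H3K9me3, against a shifted level of 13.9%, a ratio of 3.68. Of the 95033 without H3K4me3, 86.6% (86.3 to 86.8) did, against 11.4%, a ratio of 7.57. The covered share of base pairs was 36.0% with H3K4me3 and 85.3% without it. Peaks that carried the bivalent combination of H3K4me3 and H3K27me3 were thus less often on H3K9me3 but still well above their shifted level. For H3K27ac, a mark of active promoters and enhancers, the shares were 43.1% of the 9356 H3K27me3 peaks with it and 79.3% of those without.

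In the covered share of base pairs, the difference by H3K4me3 was largest among wide peaks. Without H3K4me3, H3K9me3 covered 75.8% of the base pairs of peaks under 500 bp, 86.4% at 0.5 to 1 kb, 92.7% at 1 to 2 kb, 96.0% at 2 to 5 kb and 96.7% in the 77 peaks of 5 to 10 kb. With H3K4me3, the covered shares in the same classes were 40.1%, 48.0%, 47.9%, 33.8% and 18.1%. Of the 271 peaks of at least 10 kb, 270 overlapped H3K4me3, and H3K9me3 covered 10.8% of their base pairs. From 2 kb upward, the base pairs of H3K27me3 peaks without H3K4me3 were almost wholly inside H3K9me3, and those of peaks with H3K4me3 were mostly outside it. At 2 to 5 kb these shares were 11.8 and 4.51 times their shifted levels. With shifts of only 0.2 to 2 Mb the levels there were 28.3% and 9.54%, and the ratios 3.39 and 3.54. Such ratios were 7.32 and 5.44 under 500 bp, and 2.58 and 2.08 at 5 to 10 kb. Against these levels the difference was thus not largest among wide peaks.

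**Figure D2:**
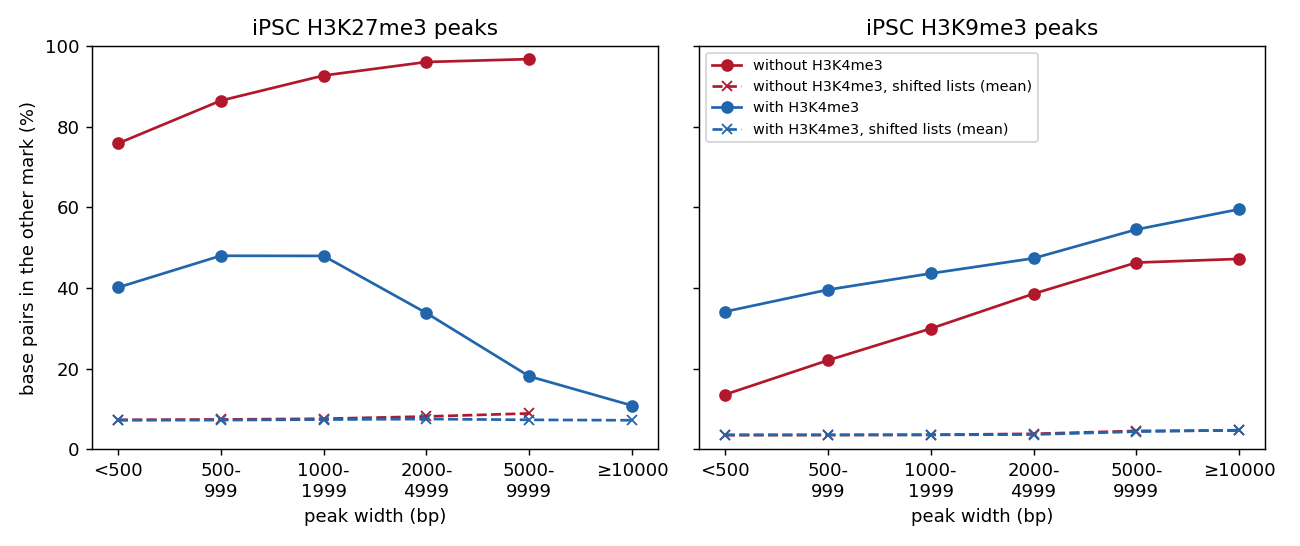
Base pairs in the other mark in percent (vertical axis) by peak width (horizontal axis), for iPSC H3K27me3 peaks in H3K9me3 (left) and iPSC H3K9me3 peaks in H3K27me3 (right). Red stands for peaks without and blue for peaks with H3K4me3, circles for the deposited lists and crosses for the mean of the shifted lists; the left class of at least 10 kb without H3K4me3 is not drawn because it holds 1 peak. On the left the lines part with width, to 96.7% and 18.1% at 5 to 10 kb.

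The overlap was present at every level of confidence in the H3K27me3 peak. In 5 equal groups of H3K27me3 peaks from the lowest −log10 q to the highest, the share on H3K9me3 was 64.5%, 76.9%, 81.3%, 83.3% and 77.5%. Among peaks without H3K4me3 it went from 72.6% in the lowest group to 92.2% in the highest, and among peaks with H3K4me3 from 34.1% to 58.0%. The shifted level went from 10.3% to 11.4% without H3K4me3 and from 10.5% to 17.5% with it. The ratio to that level went from 7.05 to 8.06 without H3K4me3, and was 3.25 and 3.31 with it. In base pairs, H3K9me3 covered 78.4% of all peaks in the group next to the highest and 45.8% in the highest.

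Taking H3K9me3 and H3K4me3 together gave 4 classes of H3K27me3 peaks. The class on H3K9me3 without H3K4me3 had 82261 peaks, 62.5% of the list and 52.1% of its base pairs, with a median width of 436 bp. The class with both had 18693 peaks (14.2%) and the widest median, 630 bp. The class with H3K4me3 alone, the bivalent arrangement without H3K9me3, had 17906 peaks (13.6%) and a median of 495.5 bp. The class with neither had 12772 peaks (9.70%) and a median of 309 bp. The median fold was 2.71, 2.89, 2.79 and 2.47 in that order, so the height of the peaks did not set these classes far apart.

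These classes differed in their state in ESC. The ESC lists did not define them, but 81.6% of all iPSC H3K9me3 peaks overlapped ESC H3K9me3. A high share on ESC H3K9me3 is therefore largely built into the classes on iPSC H3K9me3. Peaks with H3K4me3 alone overlapped ESC H3K27me3 in 66.5%, against a shifted level of 4.17%, and ESC H3K9me3 in 12.4%, against 16.2%. Peaks on H3K9me3 without H3K4me3 overlapped ESC H3K27me3 in 3.07%, which was at their shifted level of 3.30%, and ESC H3K9me3 in 89.1%, against 14.0%. Peaks with both overlapped ESC H3K27me3 in 24.0% and ESC H3K9me3 in 88.6%. Peaks with neither overlapped them in 29.9% and 42.5%. The iPSC H3K27me3 peaks on H3K9me3 were thus mostly at sites of ESC H3K9me3, and those on H3K4me3 alone mostly at sites of ESC H3K27me3. The 2 cell types do not share libraries, and the contribution of the H3K27me3 label or antibody to this pattern was not tested.

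**Figure D3:**
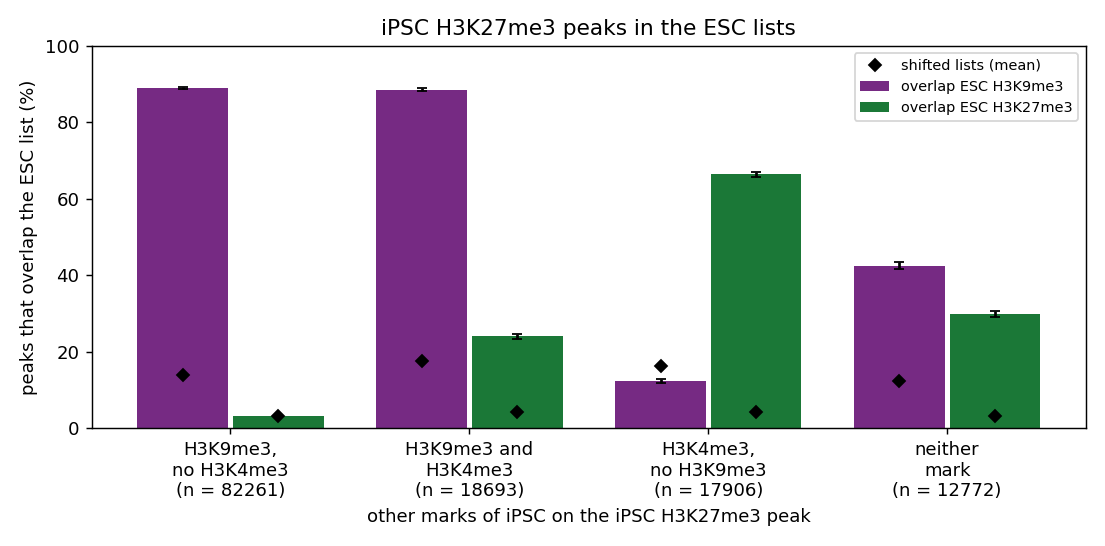
The 4 classes of iPSC H3K27me3 peaks by overlap with iPSC H3K9me3 and H3K4me3 (horizontal axis) and the percent of each class that overlapped the ESC H3K27me3 or ESC H3K9me3 list (vertical axis), as bars with 95% Wilson intervals; diamonds are the means of the shifted lists. Overlap with ESC H3K27me3 is 66.5% in the class with H3K4me3 alone and 3.07% in the class with H3K9me3 alone.

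The H3K9me3 list was divided in the same way. Its 64988 peaks with H3K27me3 and no H3K4me3 (31.0%) had a median width of 915 bp and a median fold of 2.76. Its 113649 peaks with neither mark (54.3%) had a median width of 392 bp and a median fold of 2.48. The H3K9me3 peaks that carried H3K27me3 were therefore the wider ones, and they held 65.6% of the H3K9me3 base pairs. They overlapped ESC H3K9me3 in 91.6%, and those without H3K27me3 in 74.8%. H3K9me3 peaks that overlapped H3K4me3 lay on H3K27me3 in 64.3%, and those that did not in 36.4%.

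H3K27me3 peaks that did not overlap H3K9me3 lay about as close to it as after shifting when all deposited peaks were used. Of these 30678 peaks, 44.1% had an H3K9me3 peak within 5 kb, against a shifted level of 44.5%. The median gap was 6.14 kb, against 6.03 kb after shifting. An H3K9me3 peak lay within 5 kb on both sides of 10.7% of them and on a single side of 33.4%. With the H3K9me3 list reduced to the number of H3K27me3 peaks the share within 5 kb was 36.6%, above its shifted level of 32.1%, and with −log10 q of at least 3 in both lists it was 24.8%, close to the level after shifting.

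Peaks with and without H3K4me3 stood on opposite sides of that level. Of the 17906 non-overlapping H3K27me3 peaks with H3K4me3, 36.2% had H3K9me3 within 5 kb, against 44.0% after shifting, and their median gap was 7.92 kb. Of the 12772 without H3K4me3, 55.2% did, against 44.7%, with a median gap of 4.13 kb. The contrast was sharpest close to the peak. Gaps under 500 bp made up 2.67% of the peaks with H3K4me3, against 6.91% after shifting, and 10.4% of those without, against 7.17%. H3K27me3 peaks with H3K4me3 that did not touch H3K9me3 were therefore less often close beside it than after shifting.

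The 124656 H3K9me3 peaks off H3K27me3 lay within 5 kb of an H3K27me3 peak in 44.4%, against a shifted level of 29.9%. An H3K27me3 peak that was itself on another H3K9me3 peak lay within 5 kb of 40.6% of them, against 24.0%. An H3K27me3 peak free of H3K9me3 lay within 5 kb of 6.84%, against 8.45%. In the same way, 23.3% (22.9 to 23.8) of the H3K27me3 peaks off H3K9me3 had within 5 kb an H3K9me3 peak that was free of H3K27me3, against a shifted level of 32.3% (31.2 to 33.1 over the shifts). Peaks exclusive to one mark were thus less often neighbours of peaks exclusive to the other than after shifting. Both sets were chosen for not overlapping the other mark, and how far that choice itself lowers these shares was not tested.

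Joining all peaks of both lists within 5 kb gave 109530 clusters. Of these, 54224 (49.5%) held both marks, 44745 (40.9%) only H3K9me3 and 10561 (9.64%) only H3K27me3. The mixed clusters held 88.8% of the H3K27me3 peaks and 71.3% of the H3K9me3 peaks, with a median span of 3.62 kb. In ESC, 12.4% of 124108 clusters were mixed, and they held 72.3% of the H3K27me3 peaks and 20.1% of the H3K9me3 peaks, with a median span of 8.31 kb. The cell types thus stood closer in the share of H3K27me3 peaks in mixed clusters than in the share of clusters. No shifted level was computed for clusters.

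The coverage by H3K9me3 was highest at the centre of the H3K27me3 peaks and was lower with distance on both sides. Around H3K27me3 peaks without H3K4me3, H3K9me3 covered 75.5% of the 500 bp window at the centre, 34.2% of the window 1 kb away toward lower coordinates, 26.3% at 2 kb, 22.0% at 5 kb and 18.8% at 20 kb. After shifting it was at most 7.30% in any window, so that the coverage was above the shifted level over the whole 40 kb. Around peaks with H3K4me3 it was 41.0% at the centre, 17.8% at 1 kb, 12.6% at 2 kb, 10.1% at 5 kb and 8.66% at 20 kb. In ESC, peaks with H3K4me3 had H3K9me3 coverage of 10.3% at the centre and 5.59% at 1 kb, the latter under its shifted level of 8.57%, so that in ESC a dip flanked the centre that was not seen in iPSC.

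**Figure D4:**
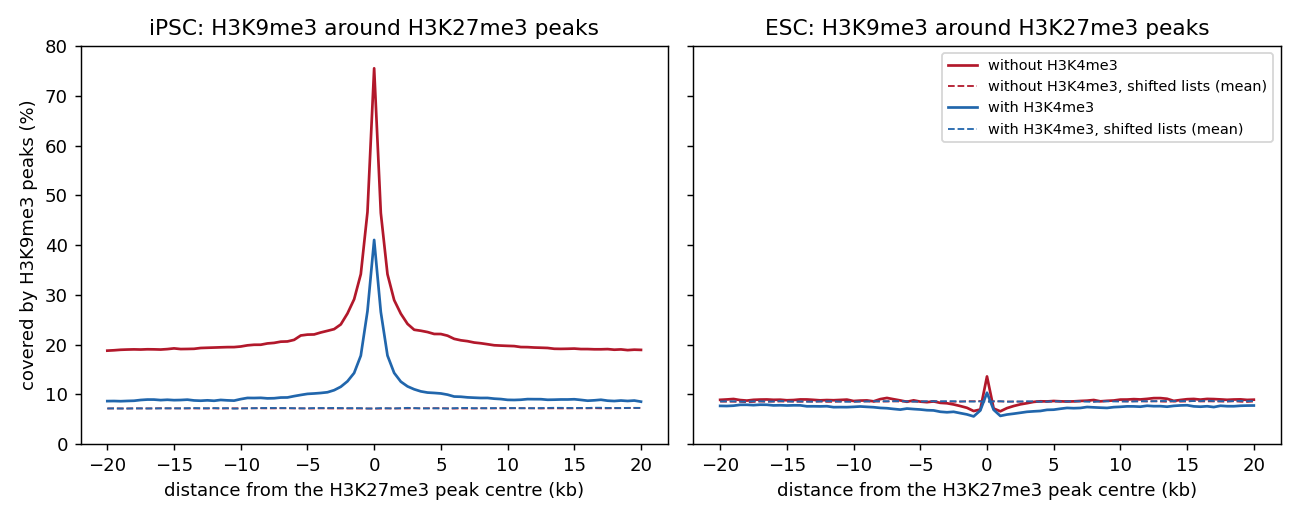
Mean H3K9me3 coverage in percent (vertical axis) in 500 bp windows by distance in kb from the centre of H3K27me3 peaks (horizontal axis), for iPSC (left) and ESC (right); red is without and blue with H3K4me3, and dashed lines are the shifted lists. In iPSC the curve without H3K4me3 peaks at 75.5% and that with H3K4me3 at 41.0%.

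The marks also went together at the scale of 100 kb. Over 25926 bins of 100 kb the coverage by H3K27me3 and by H3K9me3 had a Spearman rho of 0.621 and a Pearson r of 0.698, given as a description because bins share libraries and neighbours are not independent. Within single chromosomes the Spearman rho was 0.630 ± 0.0622 (SD, n = 20 chromosomes), from 0.430 to 0.705. In ESC it was -0.0297 over the same bins. H3K4me3 coverage had a rho of 0.277 with H3K27me3 and of -0.185 with H3K9me3 in iPSC, so that H3K27me3 went with both and these did not go with each other.

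Coverage by H3K27me3 was higher in each successive class of H3K9me3 coverage. It averaged 1.64% ± 3.67 (SD) in the 5263 bins under 2% H3K9me3, 3.23% ± 3.86 in the 8080 bins at 5 to 10%, 11.0% ± 6.88 in the 540 bins at 20 to 50% and 33.2% ± 15.8 in the 414 bins at 50% or more. The share of H3K27me3 base pairs inside H3K9me3 went from 14.5% in the first of these classes to 96.8% in the last. Mean H3K4me3 coverage went the other way, from 7.19% to 1.40%. The bins of at least 50% H3K9me3 were 1.60% of all bins and held 23.1% of the shared base pairs.

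The marks also met within bins more than their densities there would give. If both marks had been placed independently within each bin, 0.664% of the bins' length would have been in both, where 2.22% was, a ratio of 3.34. In bins under 20% H3K9me3 the same ratio was 7.89. Outside the bins of at least 50% H3K9me3, 73.6% of the H3K27me3 peaks lay on H3K9me3, against a shifted level of 11.7%.

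**Figure D5:**
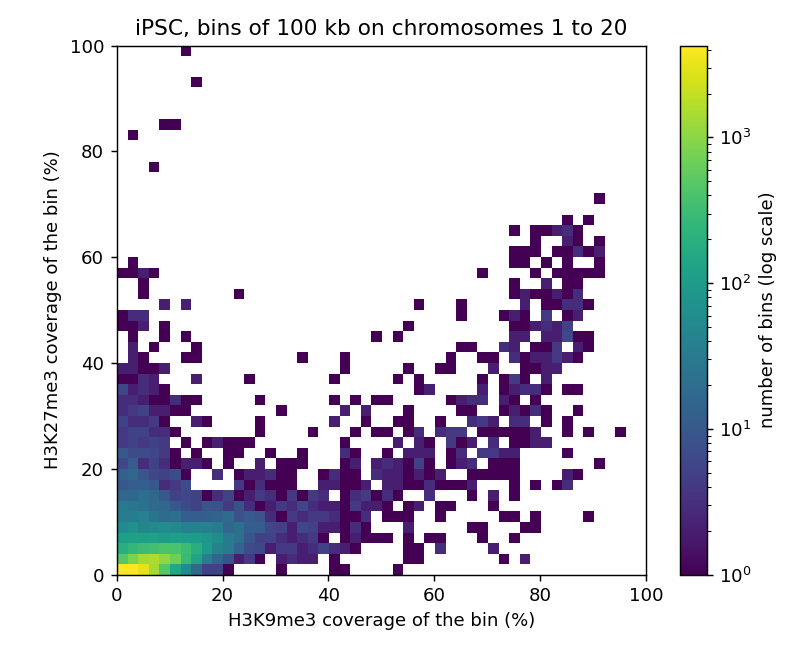
Number of 100 kb bins of chromosomes 1 to 20 (colour, log scale) by coverage of the bin by iPSC H3K9me3 (horizontal axis, percent) and iPSC H3K27me3 (vertical axis, percent). Most bins are low in both, one arm runs up the left side at low H3K9me3, and another, with the 372 bins of at least 20% of both marks, runs to the upper right.

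Bins with at least 20% of both marks numbered 372 (1.43%) in iPSC and formed 100 stretches on 18 chromosomes, and in ESC there were 14. They averaged 37.3% ± 12.9 (SD) H3K27me3 and 69.6% ± 16.0 H3K9me3, with 2.44% H3K4me3 and 0.309% H3K27ac. The same bins in ESC held on average 2.53% H3K27me3 and 33.5% H3K9me3, and that H3K9me3 mean joins unlike stretches. ESC H3K9me3 covered 9.27% to 31.1% of the 6 longest stretches and 8.89% to 88.4% of the stretches of 1 bin. The longest stretch was 40 bins, chr8 from 131.2 to 135.2 Mb, with 42.3% H3K27me3, 79.5% H3K9me3 and 41.2% in both, and 11.0% H3K9me3 in ESC. The next was 34 bins, chr20 from 5.0 to 8.4 Mb, with 46.4% and 82.1%, and 9.27% H3K9me3 in ESC. Chromosome 19 had the highest share of such bins, 8.97%, and chromosomes 2 and 17 had none.

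Bins rich in H3K27me3 alone were of another kind. The 391 bins with at least 10% H3K27me3 and under 5% H3K9me3 lay in 347 stretches on 20 chromosomes. They averaged 20.8% H3K4me3, and in ESC 26.2% H3K27me3 and 4.51% H3K9me3. Bins rich in H3K9me3 alone were few, 77 with at least 20% H3K9me3 and under 5% H3K27me3.

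Single regions show the contrast, with coordinates as in the deposited lists, whose genome build the sources used here do not give, so that genes were not assigned. The longest unbroken stretch in both marks was chr4:53254586-53291045 (36.5 kb), of which H3K4me3 covered 63.7%. The others among the 5 longest were chr8:43040406-43075697 (35.3 kb), chr7:1297911-1314270 (16.4 kb), chr13:88012884-88026909 (14.0 kb) and chr12:124506533-124519439 (12.9 kb), with 10.6% to 24.9% H3K4me3. In ESC all 5 were wholly covered by H3K9me3 and free of H3K27me3 peaks, and H3K27ac was absent from them in both cell types. ESC H3K4me3 covered 93.8% of the chr4 stretch, 86.4% of the chr7 stretch and 4.72% to 15.5% of the others. These longest shared stretches were therefore H3K9me3 in both cell types and H3K27me3 only in the iPSC list, with H3K4me3 in both cell types as well.

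The widest H3K27me3 domains without any H3K9me3 base pair, from peaks joined within 3 kb, had the reverse record in ESC. They were chr12:108289990-108332000 (42.0 kb), chr15:10734774-10772410 (37.6 kb), chr8:20056942-20091558 (34.6 kb), chr13:96627201-96661273 (34.1 kb) and chr1:44836461-44869522 (33.1 kb). H3K27me3 covered 77.8% to 87.8% of each in iPSC and 93.0% to 96.9% in ESC, and H3K4me3 covered 66.0% to 80.8% in iPSC. Of the 1959 H3K27me3 domains of at least 10 kb, 190 (9.70%) were free of H3K9me3, against 16931 of 81604 domains of any width (20.7%). A wide domain has more room to touch the other mark, and no shifted level was computed for domains.

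Among H3K9me3 domains, 60 of 3054 of at least 10 kb (1.96%) were free of H3K27me3, against 61741 of 120449 domains of any width (51.3%). These shares too have no shifted level. The widest was chr13:80844312-80876775 (32.5 kb), of which H3K9me3 peaks covered 25.9%. The next was chr10:65582184-65607719 (25.5 kb), with 47.7%. The 5 widest had no H3K4me3 peak, and ESC H3K9me3 covered 0.628% to 3.55% of them, so they were H3K9me3 of the iPSC list rather than of both.

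Of the 5 bins with the highest lesser coverage of both marks, 4 lay on chromosome 10 and 1 on chromosome 6. In the first, chr10:89200001-89300000, H3K27me3 covered 71.6%, H3K9me3 90.4% and both 68.9%, and in ESC H3K27me3 covered 0.153% and H3K9me3 14.6%. The next, chr6:3400001-3500000, had 67.9% and 85.1%, with 29.9% H3K27me3 and 13.8% H3K9me3 in ESC. The other 3, with 8.45% to 13.5% ESC H3K9me3, were on chromosome 10 within the stretch from 87.8 to 89.7 Mb, whose 19 bins averaged 54.5% H3K27me3 and 77.0% H3K9me3.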

How the data were processed

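ChIP-seq peak lists of 4 histone marks in baboon iPSC and ESC were used, 1 list for the 6 libraries of a cell type and mark. The submitters' processing notes name SAMtools 1.10, MACS2, deepTools and Picard. The aligner, genome build, thresholds and the way of combining libraries with inputs were not given in the sources used here. Each deposited list gives, per peak, a fold over background (a ratio) and the −log10 of q, both made by the authors' peak caller. They were used here to describe, group or filter peaks. Median folds were also set side by side between the iPSC lists, and fold was correlated across pairs of overlapping peaks. The 8 deposited columns of −log10 p were not used.

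Peak positions were compared with Python 3.11.15, NumPy 2.4.6, pandas 2.3.3 and SciPy 1.17.1. Overlap meant at least 1 bp. Chromosome length was taken as the furthest peak end in any list. Shifted levels are means of 100 circular shifts (20 against ESC lists, 10 for the coverage profile), with no p-value. The overlap code was tested on simulated intervals. Regions named are the 5 longest shared stretches, the 5 widest domains of each mark (peaks joined within 3 kb) without the other, and the 5 bins with the highest lesser coverage. Gene names and sequence were not used here. The members and lists were chosen with earlier results of these data known.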

Additional observations from a re-analysis of the deposited data

How the results depend on the processing

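Of 45 recalculations under other settings, 19 stayed within the spread used as their yardstick, 22 moved beyond it and 4 changed sign. That yardstick differed between results. A share of peaks of 76.3% against 76.7% counted as moved, and a share of base pairs of 58.2% against 64.15% did not. These counts are therefore no measure of stability. The 76.7% of H3K27me3 peaks on H3K9me3 was 67.9% with −log10 q of at least 3 in both lists, 66.2% with the H3K9me3 list reduced to the number of H3K27me3 peaks, 73.6% without bins of at least 50% H3K9me3, 70.8% when at least 50% of the peak had to be covered, 77.5% with peaks joined within 1 kb, and 76.3% to 77.3% with each chromosome left out. Its shifted level was 15.9% with shifts of 0.2 to 2 Mb, and that of the base pairs 11.7%. The 64.15% of base pairs was 43.9% at −log10 q of at least 3, where the ratio to the shifted level was 9.12. The 44.1% of non-overlapping peaks within 5 kb was 32.7% and 24.8% at −log10 q of at least 2 and 3 (both under their shifted levels), 36.6% with the reduced list (shifted 32.1%), 13.5% within 1 kb and 64.7% within 10 kb.

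The difference in overlap between the widest and the narrowest H3K27me3 peaks, 0.8705 points, had no stable sign: it was -21.5 and -34.3 at −log10 q of at least 2 and 3, -15.2 with the reduced list and -0.442 at the lowest with a chromosome left out. The difference by H3K4me3, 35.5 points, was 38.5 and 37.0 at those thresholds, 33.6 with the reduced list, 34.75 without the dense bins and 42.0 with H3K4me3 peaks of −log10 q of at least 5. The Spearman rho of 0.621 was 0.461 in 1 Mb bins and 0.555 at −log10 q of at least 2. Leaving out bins of at least 20% H3K9me3, chosen after seeing the data, gave 0.583. The cause of these shifts was not tested. Every 100 kb bin held an iPSC peak, so that leaving out empty bins changed nothing. No paired analysis was possible because each mark has 1 pooled list, and for the same reason no library could be left out and depth per library is unknown.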
